A study of Mus musculus with 6 samples.

Results

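Tooth germs of wild-type C57BL/6 mouse embryos, labelled E15.5 for their embryonic day, are described here through 3 RNA sequencing libraries. They are the 3 of the 6 libraries in the series whose genotype label reads Wildtype, and they carry no treatment. The other 3 libraries come from Smad7-/- embryos of the same strain and labelled age, and no genotype comparison is made. The labels name the tissue as tooth germ. They do not say which teeth were dissected, how many germs or embryos went into a library, or whether each library is a different animal. Every SD given here thus measures only the spread between these 3 libraries. Sex-linked transcripts separate library 1 from libraries 2 and 3, so the 3 are not all from 1 animal. RNA was purified on columns and sequenced from a library kit that does not mark strand, and reads were counted per gene symbol.

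A tooth forms from an oral epithelium and a mesenchyme derived from the neural crest. The epithelium folds around a signalling centre, the enamel knot, which secretes Sonic hedgehog, FGF, BMP and WNT ligands. Its inner cells later become ameloblasts, which lay down enamel, and the facing mesenchyme becomes odontoblasts, which lay down dentin. As background, that secretion is known from the late bell stage onward, after the cap stage at which the primary enamel knot is active.

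The libraries held 52137318, 48911104 and 47800685 counts over 23420 gene symbols. Levels are given as CPM, counts scaled to the total of each library, and between genes as RPKM, the same value per kilobase of exon. A gene is termed present at 1 CPM or more in all 3 libraries, absent at under 0.1 CPM in all 3, and low otherwise. By these limits 12972 symbols (55.4%) were present, 3655 were low and 6793 (29.0%) were absent, of which 4948 had no count in any library. A count of 0 allows a level of up to 0.0575, 0.0613 and 0.0628 CPM in libraries 1, 2 and 3 (3 counts of the total, counting error only). Protein-coding genes held 98.9% of the counts and annotated long non-coding genes 0.407% ± 0.00877 (SD, n = 3).

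Matrix proteins of mineralised tissue, translation genes and an epithelial keratin took the largest shares of the counts. Col1a1, a chain of type I collagen, stood at 8986, 11969 and 13893 CPM in libraries 1, 2 and 3, the highest mean of all symbols (11616 ± 2473 CPM, SD). The elongation factor Eef1a1 stood at 12762, 9459 and 9954 CPM. Amelx, which encodes amelogenin, the main protein of forming enamel, stood at 6240, 10140 and 13695 CPM. Library 1 was thus the lowest of the 3 for Col1a1 and Amelx and the highest for Eef1a1. The 10 symbols with the highest mean held 5.61%, 6.17% and 7.06% of the counts, and the top 100 held 18.2%, 18.1% and 19.5%. In all, 1026 genes held 50% of the counts and 5990 held 90%. Of the 25 most abundant symbols, 19 were among the first 25 in every library.

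**Figure D1:**
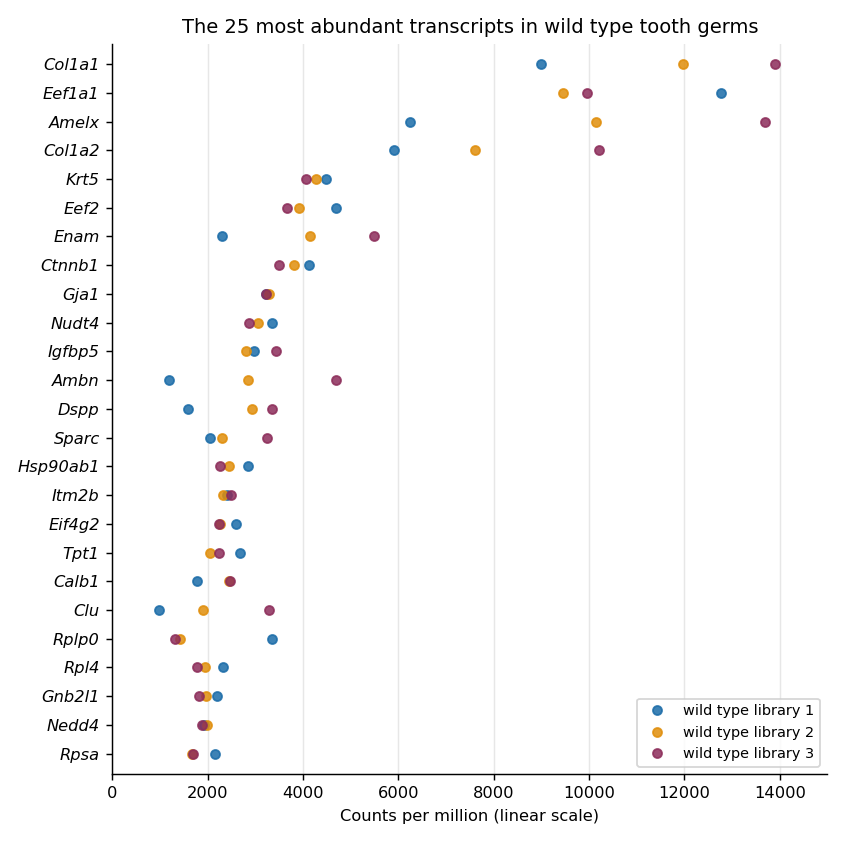
The 25 symbols with the highest mean CPM (rows, highest at the top); each point is 1 wild-type library and the horizontal axis is CPM on a linear scale. Col1a1, Amelx, Col1a2, Enam, Ambn, Dspp and Clu lie lowest in library 1 and highest in library 3, while Eef1a1, Krt5, Eef2 and Rplp0 lie highest in library 1.

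Per length, Amelx had the highest level of all genes, at 10035 ± 3733 RPKM (SD, n = 3). Eef1a1 followed at 4302 ± 715 RPKM, then Rplp1, a protein of the ribosomal stalk, at 2151 ± 136, Krt5, the keratin of basal epithelial cells, at 1945 ± 93.1, and Col1a1 at 1770 ± 377 RPKM. The order of Eef1a1 and Amelx held in libraries 1, 2 and 3 alike (5119 against 6246, 3794 against 10150 and 3993 against 13709 RPKM). Rplp1, Krt5 and Col1a1 differed by less than the SD of Col1a1 or close to it, so their order is not resolved. Ambn, which encodes the enamel protein ameloblastin, ranked seventh per length at 1516 ± 909 RPKM. The short entry Mir682 reached 1206 ± 185 RPKM on 96 bases, and it lies inside a processed pseudogene, so its reads cannot be given to a microRNA.

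Other abundant genes served cell junctions, signalling and calcium. Ctnnb1, which encodes beta-catenin of adherens junctions and WNT signalling, stood at 4133, 3805 and 3494 CPM, and Gja1, the gap junction protein connexin 43, was level at 3232, 3289 and 3222 CPM. Calb1, a calcium-binding protein known from enamel epithelium, stood at 1783, 2445 and 2470 CPM, lowest in library 1. The growth factor binding protein gene Igfbp5 stood at 2966, 2792 and 3424 CPM and the ubiquitin ligase gene Nedd4 at 1918, 1977 and 1880 CPM. Nudt4, a phosphatase of inositol pyrophosphates, had 963 ± 76.3 RPKM, and Itm2b, a membrane protein gene, stood at 2402, 2313 and 2481 CPM. Gja1, Itm2b and Nedd4 thus differed among the libraries less than Amelx, Enam, Ambn and Dspp.

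The given markers Amelx, Enam, Dspp, Col1a1, Krt5 and Shh were all present. On the mm10 build, Amelx lies on the reverse strand of chromosome X at 169176114 to 169187200, inside the span of Arhgap6 on the opposite strand, with no overlap of exons. Enam (88487975 to 88506049) and Dspp (104170712 to 104180127) lie on the forward strand of chromosome 5, and Shh (28456815 to 28467256) on its reverse strand. Col1a1 lies on the forward strand of chromosome 11 at 94936224 to 94953042 and Krt5 on the reverse strand of chromosome 15 at 101707070 to 101712898. No 50-base stretch of the annotated transcripts of Amelx, Enam, Dspp, Col1a1 or Shh occurs in a gene elsewhere. In Krt5, 8.52% of such stretches do, and exons of Shh overlap antisense genes, whose reads cannot be told apart without strand.

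The 100 bases before the RefSeq start sites of Amelx, Ambn, Enam and Krt5 are shown (GRCm38.p6, each 5′ to 3′ on the strand of the gene). Dspp, Col1a1 and Shh had no full window on file. The windows were searched between 45 and 15 bases before the start for the letters TATAAA on either strand, which are in capitals where found.
Amelx (chrX:169187210-169187309, reverse strand): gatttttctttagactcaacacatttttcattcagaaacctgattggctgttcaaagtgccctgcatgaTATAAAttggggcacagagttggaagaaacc
Ambn (chr5:88455891-88455990, forward strand): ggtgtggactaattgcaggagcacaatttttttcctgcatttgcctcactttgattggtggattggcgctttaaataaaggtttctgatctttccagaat
Enam (chr5:88487875-88487974, forward strand): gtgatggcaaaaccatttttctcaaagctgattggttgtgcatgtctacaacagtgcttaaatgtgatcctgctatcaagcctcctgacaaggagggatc
Krt5 (chr15:101712906-101713005, reverse strand): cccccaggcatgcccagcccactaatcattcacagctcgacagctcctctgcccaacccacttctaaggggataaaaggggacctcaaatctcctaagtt
Amelx alone of these held the letters, starting 31 bases before the start site. They were in 2.72% of all 32851 windows, in 1.41% of the 12426 windows of present genes, in 6.90% of the 4625 windows of absent genes and in 4 of 84 windows (4.76%) on file for 69 of the 100 most abundant genes. A match describes the letters and is not evidence of a factor, and genes can have several windows.

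Genes of enamel formation were abundant, and the summed share of their list was highest in library 3 and lowest in library 1. Of 12 genes listed for ameloblasts and enamel matrix, 9 were present and 3 were low, and together they took 1.80% ± 0.712 of the counts (SD, n = 3). Enam, which encodes enamelin, stood at 2294, 4150 and 5488 CPM, and Ambn at 1196, 2850 and 4684 CPM. Mmp20, the protease that cleaves enamel proteins as they are secreted, stood at 248, 354 and 409 CPM. These 3 genes and Amelx were each lowest in library 1 and highest in library 3, by 2.19 times for Amelx, 2.39 times for Enam and 3.92 times for Ambn. Odam, a protein of the enamel surface and junctional epithelium, did not share that order, at 239, 160 and 186 CPM. Dlx3, a homeobox gene of enamel and hair, was nearly level at 418, 427 and 388 CPM. Amelx, Ambn and Enam made up 16912 CPM of the mean list sum of 17985 CPM. Of the 9 listed genes of at least 5 CPM, 5 were highest in library 3 and 5 were lowest in library 1. Over all 11218 genes of that level, 3469 were highest in library 3 and 4640 lowest in library 1. Some listed genes known from the maturation of enamel were near the lower limits. Klk4, the maturation protease, stood at 0.978, 1.43 and 1.76 CPM and Amtn at 0.690, 0.388 and 0.690 CPM. The exchanger gene Slc24a4 stood at 0.115, 0.307 and 0.209 CPM. Wdr72, of the same list, had a higher mean of 6.91 CPM.

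Most enamel knot genes were present, and 3 ligand or inhibitor genes were at or near 0. Of 13 listed, 10 were present, with 0.107% ± 0.00654 of the counts. Shh, the hedgehog ligand of the knot and of the later inner epithelium, stood at 543, 605 and 488 CPM (191 ± 20.6 RPKM), and the WNT ligand gene Wnt6 at 260, 269 and 270 CPM. Wnt10a stood at 139, 161 and 144 CPM and Bmp2 at 50, 54.6 and 65.6 CPM. The ratio of highest to lowest library was 1.04 for Wnt6 and 1.16 for Wnt10a, and Shh varied more. Its median over the 8 listed genes of at least 5 CPM was 1.28, against 1.17 over all 11218 genes of that level. Of the FGF ligands that mark the knot, Fgf9 stood at 12.0, 9.16 and 5.65 CPM and Fgf4 had 0, 20 and 0 counts. Fgf20 had no count in any library, and Dkk4, a WNT inhibitor of placodes and the primary knot, had 6, 0 and 0 counts. None of Fgf4, Fgf20 and Dkk4 has a 50-base stretch that occurs elsewhere in the annotation. That does not show that their RNA is absent, since Rpl30 and Rpl34, with 8.04% and 7.78% of such stretches, were also listed near 0. Under the label of E15.5, the libraries thus held Amelx, Enam and Ambn among the most abundant transcripts and these 3 knot genes at or near 0. The other 10 of the 13 listed knot genes were present, and the labelled age was not tested.

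**Figure D2:**
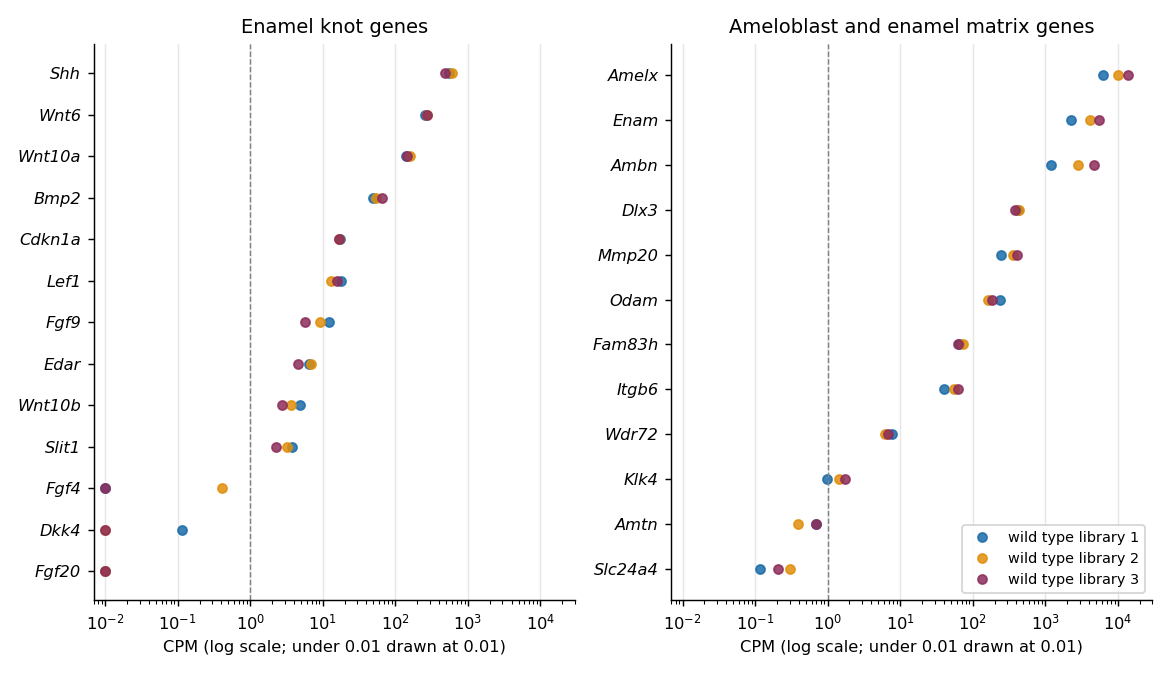
Enamel knot genes (left) and ameloblast and enamel matrix genes (right), 1 point per wild-type library, on a log CPM axis where values under 0.01 are drawn at 0.01; the dashed line marks 1 CPM. Amelx, Enam and Ambn spread from library 1 to library 3, while the points of Shh, Wnt6 and Wnt10a lie closer together. Fgf20 lies at the left edge in all 3 libraries, and Fgf4 and Dkk4 lie there in all but 1 library each.

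The dental epithelium was strongly represented, with a sum that varied less than that of the enamel list. Of 17 listed genes 16 were present, at a sum of 14524, 14550 and 13170 CPM. Krt5 stood at 4479, 4271 and 4070 CPM and its partner keratin gene Krt14 at 1487, 1509 and 1578 CPM. Perp, a desmosome protein, had 679 RPKM and Krt17 had 638 RPKM. Library 3 was the lowest for 15 of the 16 genes whose mean reached 5 CPM (over all 11218 genes of that level, for 4138), with a median ratio of highest to lowest library of 1.21 against 1.17 over all. Sp6, a zinc-finger factor needed for enamel, stood at 1740, 1990 and 1654 CPM. Sox2, which marks epithelial stem cells, was low at 1.48, 0.981 and 0.628 CPM.

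Mesenchymal patterning genes were nearly all present, with a steady sum over members that differed in direction. Of 21 listed genes 20 were present, with a sum of 1095, 1017 and 982 CPM. Of the 18 genes of at least 5 CPM, 6 were highest in library 1 and 12 in library 3, and the median ratio of highest to lowest library was 1.29, against 1.17 over all 11218 genes of that level. Msx2 stood at 328, 324 and 294 CPM and Dlx2 at 266, 250 and 184, both homeobox genes that the epithelium can also express. Per length Msx2 had 96.2 RPKM, Dlx2 81.8, Barx1, a homeobox gene of molar mesenchyme, 44.5 and Dlx5 30.9 RPKM. The tooth bud gene Pax9 stood at 6.5, 6.56 and 8.08 CPM, Msx1 at 10.9, 10.8 and 11.4, and Bmp4 at 65.0, 62.2 and 56.5 CPM. In bulk RNA, fewer cells of a type and less RNA per cell cannot be told apart, here and in every list that follows.

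Genes of odontoblasts and dentin were high and, like Amelx, Enam and Ambn, mostly lowest in library 1. Of 9 listed genes 8 were present, at a sum of 17328, 23558 and 28762 CPM, and 7 of 8 genes of at least 5 CPM were lowest in library 1 and 7 were highest in library 3. Over all 11218 genes of that level, 4640 were lowest in library 1 and 3469 highest in library 3. Dspp, whose product is the main non-collagen protein of dentin, stood at 1591, 2925 and 3351 CPM (592 ± 207 RPKM). Dmp1, a dentin and bone matrix protein, stood at 250, 327 and 473 CPM, and Col1a2, the second chain of type I collagen, at 5911, 7611 and 10211 CPM. The exception was the bone sialoprotein gene Ibsp, at 137, 126 and 121 CPM. The transcription factor gene Sp7 was nearly level at 89.6, 90.6 and 91.5 CPM. Mepe was low at 1.07, 0.532 and 0.544 CPM.

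Bone genes overlapped with that list in Col1a1, Dmp1, Phex, Ibsp, Sp7 and Mepe, and 12 of 14 were present. Alpl, the phosphatase of mineralising cells, stood at 509, 542 and 679 CPM, and Spp1, which encodes osteopontin, at 170, 291 and 235 CPM. The osteocalcin genes Bglap and Bglap2 stood at 20.8 ± 9.50 and 20.5 ± 11.4 CPM (SD, n = 3). Their values are uncertain, because 56.6% and 88.2% of their 50-base stretches occur in another gene. Sost, the gene of embedded osteocytes, was low at 0.0384, 0.184 and 0.377 CPM.

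Osteoclasts, the cells that resorb bone, left a clear set of markers. Of 11 listed genes 10 were present, with sums of 595, 923 and 914 CPM. Ctsk, the collagen-degrading protease of osteoclasts, stood at 188, 298 and 278 CPM, Acp5, their acid phosphatase, at 105, 175 and 177, and Mmp9 at 177, 316 and 304 CPM. For these 3 genes library 1 was the lowest and libraries 2 and 3 were close. Of the 7 osteoclast genes of at least 5 CPM, 5 were lowest in library 1 and 2 in library 2, among them Car2, carbonic anhydrase, at 69.6, 67.2 and 85 CPM. Over all 11218 genes of that level, 4640 were lowest in library 1 and 2440 in library 2. The fusion genes Dcstamp (2.36, 4.33 and 3.66 CPM) and Ocstamp (1.59, 2.72 and 2.66 CPM) were also lowest in library 1. The calcitonin receptor gene Calcr was low at 0.806, 0.450 and 0.418 CPM.

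Cartilage was represented unevenly. Of 17 listed genes 8 were present, 6 low and 3 had no count in any library (Matn1, Ucma and 3110079O15Rik, the older symbol of Snorc). Col2a1, the main collagen of cartilage, stood at 19.8, 18.6 and 15 CPM and Acan, its main proteoglycan, at 3.59, 2.27 and 4.94 CPM. Col9a3 at 65.7 RPKM, Col11a2 at 47.4 and Col11a1 at 36.4 RPKM, picked after their values were seen, stood above Col2a1 at 1.93 RPKM and Col9a2 at 10.8 RPKM, and made up a mean of 1043 CPM of the list against 173 CPM for its other 14 genes. Sox9, the chondrocyte regulator that other epithelia and mesenchymes also use, stood at 67.9, 63.0 and 66.4 CPM. The growth plate genes Col10a1 (0.422, 0.327 and 0.314 CPM) and Ihh (0.269, 0.225 and 0.0837 CPM) were low.

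Fewer skeletal muscle and salivary gland genes were present than the 55.4% of all symbols, while tendon and keratinised epithelium genes were near that share. The 16 skeletal muscle genes summed to 13.4, 13.9 and 15.6 CPM, 5 of them present, and the myogenic regulators Myod1 (4, 2 and 0 counts) and Myf5 (0, 2 and 0 counts) were absent. Mylpf, a fast muscle myosin light chain, had 2.42 RPKM and Acta1, skeletal actin, 1.41 RPKM. Of 4 tendon genes Tnmd (16, 10.4 and 15.8 CPM) and Mkx were present, Scx was low and Kera was absent. Of 6 salivary gland genes only Bhlha15, a secretory cell factor, was present (1.11, 1.57 and 1.42 CPM), and Muc19, Smgc and Prol1 had no count. Among 9 genes of keratinised epithelium 5 were present, led by the desmosome cadherin Dsg1a at 60.5, 58.8 and 77.1 CPM, while the envelope gene Ivl was absent. Lor, the main envelope protein of skin, stood at 2.22, 2.80 and 1.69 CPM.

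Among transcription factors that give a jaw its position, the Dlx genes were present and the Hand genes were absent. Of 19 listed genes 12 were present, led per length by Dlx3 at 158 RPKM, Dlx2 at 81.8, Pitx1 at 46.1 and Barx1 at 44.5 RPKM. Pitx1, a hindlimb and lower jaw homeobox gene, stood at 138, 132 and 97.5 CPM. Hand1 had no count, and Hand2, a gene of the distal lower jaw, had 2, 4 and 0 counts. Of 39 Hox cluster genes, which pattern the trunk and are silent in the first pharyngeal arch, only Hoxc13 was present (4.43, 4.09 and 3.47 CPM). Another 35 were absent, 27 of them with no count, and Hoxd8, Hoxd9 and Hoxb2 were low.

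Blood was detected mainly through 1 globin symbol. The listed red blood cell genes summed to 500, 304 and 371 CPM. The adult beta globin gene Beta-s (the older symbol of Hbb-bs) made up 401, 228 and 295 CPM of that. The level of Beta-s is uncertain, because 53.2% of its 50-base stretches occur in another gene. Without Beta-s the list summed to 98.8, 76.6 and 75.2 CPM. Alas2, the haem synthesis enzyme of red cells, stood at 29.96, 16.3 and 21.8 CPM. Beta-s and Alas2 were both highest in library 1 and lowest in library 2, as was the sum of the whole list. The anion exchanger gene Slc4a1 varied less, at 16.8, 16.5 and 14.7 CPM. The alpha globin genes Hba-a1 and Hba-a2 were listed at 0 in all 3 libraries, with 72.3% and 89.3% of their 50-base stretches found in another gene, and Hbb-b1, Hbb-b2 and Hbb-bh1 were also listed at 0. These zeros do not show that the RNA is absent. The embryonic globin genes Hbb-y (8, 7 and 0 counts) and Hba-x (4, 13 and 0 counts) were near the limit of detection.

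White blood cell genes were sparse apart from those of macrophages. Of 15 macrophage genes 14 were present, at a sum of 165, 157 and 224 CPM, with the growth factor receptor gene Csf1r at 32.8, 36.6 and 48.2 CPM and the lysozyme gene Lyz2 at 27.3, 22.6 and 35.2 CPM. All 12 macrophage genes of at least 5 CPM were highest in library 3, where 3469 of all 11218 such genes were. The neutrophil genes S100a9 (6.29, 17.4 and 11.0 CPM) and S100a8 (5.56, 14.9 and 9.64 CPM) were instead highest in library 2. Kit, at 70.6 ± 4.78 CPM, stands on the same list for mast cells but is used by other cells too, and the mast cell proteases Cma1 and Cpa3 were low. None of the 8 lymphocyte genes was present, and Cd8a had no count. Of 6 platelet genes 3 were present, led by Pf4 at 3.36, 4.74 and 5.59 CPM.

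Blood vessels were present with every listed gene. All 14 endothelial genes were present, at sums of 493, 375 and 549 CPM, and 12 of the 13 with at least 5 CPM were lowest in library 2, against 2440 of all 11218. Cdh5, the cadherin of endothelial junctions, stood at 86.0, 65.1 and 96.0 CPM and Pecam1 at 69.6, 54.1 and 79.8 CPM. All 11 smooth muscle and pericyte genes were present, with smooth muscle actin, Acta2, at 173, 125 and 121 CPM. Acta2 was highest in library 1, where the pericyte gene Abcc9 was lowest (63.2, 70.0 and 82.1 CPM). The endothelial, red cell and macrophage sums were each lowest in library 2, and the red cell sum alone of these was highest in library 1. Without Beta-s, the red cell sum was lowest in library 3 instead, at 75.2 CPM against 76.6 CPM in library 2. The largest of the remaining members, the spectrin gene Sptb, stood at 43.1, 33.9 and 29.5 CPM. Of the 4 red cell genes of at least 5 CPM, Beta-s included, 2 were lowest in library 2 and 2 in library 3.

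Neuron genes were present less often than all symbols, and Schwann cell and melanocyte genes about as often. Of 12 neuron genes 3 were present, at a list mean of 348 CPM, and without Tubb3 (307, 313 and 273 CPM) and Stmn2 (47.5, 47.1 and 46.0 CPM), both tubulin-related genes, the other 10 summed to 3.24, 3.54 and 4.98 CPM (the split was made after the values were seen). Neurod1 had no count, and the neurofilament gene Nefl stood at 0.115, 0.327 and 0.502 CPM. Of 10 Schwann cell genes 6 were present, with Mbp, a myelin protein gene with transcripts in other cells, at 88.4, 84.2 and 65.9 CPM. The defining factor Sox10 was low at 0.441, 0.797 and 0.900 CPM. Among 6 melanocyte genes Mitf (22.5, 22.1 and 21.7 CPM), Dct and Pmel were present, while Tyr had no count. Of 24 genes of other organs, among them liver, gut, lung, brain and eye, none was present and 9 had no count.

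**Figure D3:**
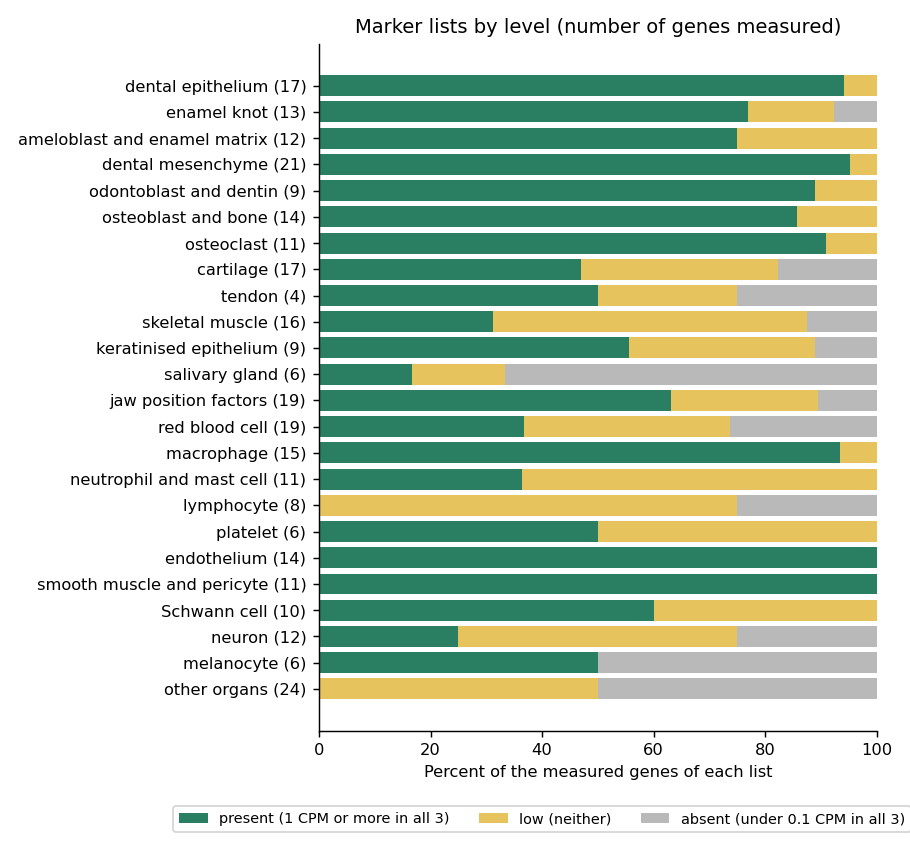
Share of the measured genes of each marker list (rows, number of genes in brackets) that were present, low or absent in the 3 wild-type libraries. Endothelium and smooth muscle and pericyte are fully present, the dental lists lie between 75.0% and 95.2% present, and the lymphocyte and other organ lists have no present gene.

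Translation genes made up the largest of the gene classes. The 79 ribosomal protein genes took 6.52%, 5.21% and 5.13% of the counts, and 35 translation factors took 3.59%, 2.95% and 2.95%. Library 1 was the highest for 72 of the 74 ribosomal protein genes and 31 of the 35 translation factors of at least 5 CPM, where over all 11218 such genes it was the highest for 4071. The median ratio of highest to lowest library was 1.26 for these ribosomal protein genes and 1.17 for the translation factors, against 1.17 over all. Rplp0, the core protein of the ribosomal stalk, varied more than that median, at 3352, 1413 and 1307 CPM, 2.56 times higher in library 1 than in library 3. Eef2, the factor that moves the ribosome along the message, stood at 4690, 3921 and 3669 CPM.

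Collagens took 2.39%, 2.88% and 3.42% of the counts, with 37 of 44 genes present, and 45 other matrix genes, all present, took 1.45%, 1.46% and 1.74%. Col1a1 and Col1a2 alone took 1.49%, 1.96% and 2.41%. Sparc, which binds collagen in bone and dentin, stood at 2049, 2301 and 3248 CPM, and Lum, which encodes the fibril proteoglycan lumican, at 1100, 1019 and 1299 CPM. Col4a1, a basement membrane collagen, had another order, at 1032, 783 and 926 CPM. Across the libraries, the summed share of Amelx, Ambn, Enam, Dspp, Col1a1 and Col1a2 (chosen after their values were seen) was 2.62%, 3.96% and 5.13%, while ribosomal proteins and translation factors together took 10.1%, 8.16% and 8.08%. The part of either in the other was not tested.

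The shares of chaperone, cytoskeletal, splicing, respiratory chain and keratin genes were steadier. Chaperones and folding enzymes took 1.97%, 1.90% and 1.88%, with Hsp90ab1 at 2834, 2451 and 2247 CPM and P4hb, the collagen hydroxylase subunit, at 1789, 1652 and 1864 CPM. Cytoskeletal genes took 1.62%, 1.61% and 1.58% of the counts, splicing and RNA-binding proteins 1.49%, 1.48% and 1.42%, and the nuclear-encoded respiratory chain 1.15%, 1.07% and 1.09%. Keratins took 0.723%, 0.709% and 0.684%, with 17 of 48 present, led by Krt5, Krt14 and Krt17. The 66 replication-dependent histone genes took 0.00842% ± 0.00119, with 5 present. Their levels are uncertain, since 30 of them have 50% or more of their 50-base stretches in another gene (median 48.2%). The 5 with no such stretch had means of 0, 0.0532, 0.147, 0.278 and 8.70 CPM (Hist1h1t, Hist1h1a, Hist1h1b, Hist2h2bb and Hist2h2be). All 33 proliferation genes were present (0.267% ± 0.0183). Mki67, a marker of cycling cells, stood at 194, 302 and 267 CPM.

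**Figure D4:**
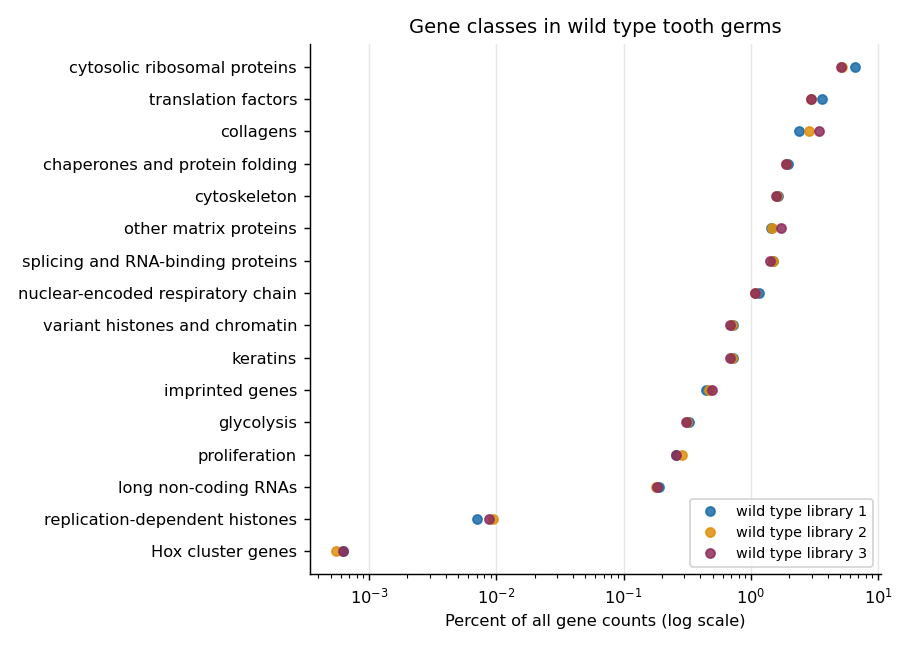
Share of all gene counts taken by each gene class (rows), 1 point per wild-type library, on a log axis in percent. Ribosomal proteins and translation factors lie highest in library 1, collagens and other matrix proteins highest in library 3, and replication-dependent histones and Hox cluster genes lie far to the left.

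Some genes that every cell uses were listed at or near 0, which limits how far a 0 can be read. The ribosomal protein gene Rpl26 had no count in any library, and Rps27, Rpl30 and Rpl34 had means of 1.02, 1.33 and 1.13 CPM, while the median ribosomal protein gene stood at 333 RPKM. The glycolytic enzyme gene Eno1 stood at 0.997, 0.920 and 0.628 CPM beside Pkm at 869, 883 and 805 CPM. The respiratory chain gene Ndufs5 had 0, 1 and 0 counts. The share of 50-base stretches found in another annotated gene was 22.7% for Rpl26, 26.0% for Eno1, 21.7% for Ndufs5 and 25% for Rps27. For Rpl30 and Rpl34, also near 0, it was lower, at 8.04% and 7.78%. It was 60% for Rplp1 and 30.3% for Rps15, which are among the highest genes per length. Over the ribosomal protein genes, the 5 with 50% or more of such stretches had a median of 821 RPKM, the 58 between 10% and 50% had 325 and the 16 under 10% had 187 RPKM. How reads shared by several genes were counted is not given in the sources used here, and the part of shared sequence in the zeros was not tested.

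The libraries were close to each other for most genes, with library 1 the farthest from the rest. Among the 11218 genes whose mean reached 5 CPM, the median SD of log2 CPM was 0.12, against 0.03 for counting alone. The highest library exceeded the lowest by more than 1.5 times in 1111 genes (9.90%), more than 2 times in 193 (1.72%) and more than 3 times in 30 (0.267%). These counts leave out Ddx3y, Eif2s3y and Uty, which had no count in library 1 and so no ratio. Library 1 was the one farthest from the middle value in 5418 genes (48.3%), and in 138 of the 193 genes (71.5%), where it was lower in 125 and higher in 13. Across genes, which are not independent replicates, the Pearson correlation of log2 CPM was 0.974 between libraries 1 and 2, 0.970 between 1 and 3 and 0.991 between 2 and 3. The common dispersion from edgeR corresponded to a biological coefficient of variation of 13.8%, and to 9.76% without library 1.

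The spread was smallest at middle levels. The median coefficient of variation over the 3 libraries was 14.5% for genes of 5 to 10 CPM, 6.58% for genes of 100 to 300 CPM and 10.7% for the 69 genes above 1000 CPM. Tmsb4x, the actin-binding thymosin gene, stood at 840, 849 and 855 CPM.

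The largest spread was in genes of the sex chromosomes. Xist, a non-coding RNA that coats and shuts down 1 X chromosome in females, stood at 192, 0.204 and 0.105 CPM. The Y-linked genes Ddx3y (0, 118 and 133 CPM), Eif2s3y (0, 84.3 and 75.1 CPM), Uty (0, 43.9 and 45.5 CPM) and Kdm5d (0.0192, 36.4 and 34.9 CPM) had the reverse pattern. Library 1 therefore carried a female and libraries 2 and 3 a male set of these transcripts. Library 1, lowest for Amelx, Enam, Ambn, Dspp, Ctsk and Acp5 and highest for 72 of 74 ribosomal protein genes, is also the only one with Xist above 1 CPM, and with 1 library of that kind sex and any other property of library 1 cannot be told apart.

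Outside the sex chromosomes, Klhl5, a Kelch-family adaptor gene on chromosome 5, stood at 6.41, 106 and 124 CPM. Slc15a2, a peptide transporter gene, stood at 0.652, 4.33 and 18.4 CPM, and Trim12c, of the antiviral TRIM family, at 1.13, 13 and 16.1 CPM. Crtac1, a secreted cartilage protein gene, stood at 21, 67.7 and 109 CPM. All 4 were lowest in library 1 and highest in library 3. Jmjd7 differed, at 5.77, 20.9 and 3.97 CPM, high in library 2 alone, and its exons overlap an annotated read-through gene, so its reads may be shared. The nuclear RNA Neat1 stood at 8.13, 26.1 and 35 CPM, and Ambn was also among the 20 genes of largest spread. Clu, the secreted chaperone clusterin, was among the 25 most abundant genes and stood at 987, 1907 and 3294 CPM.

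**Figure D5:**
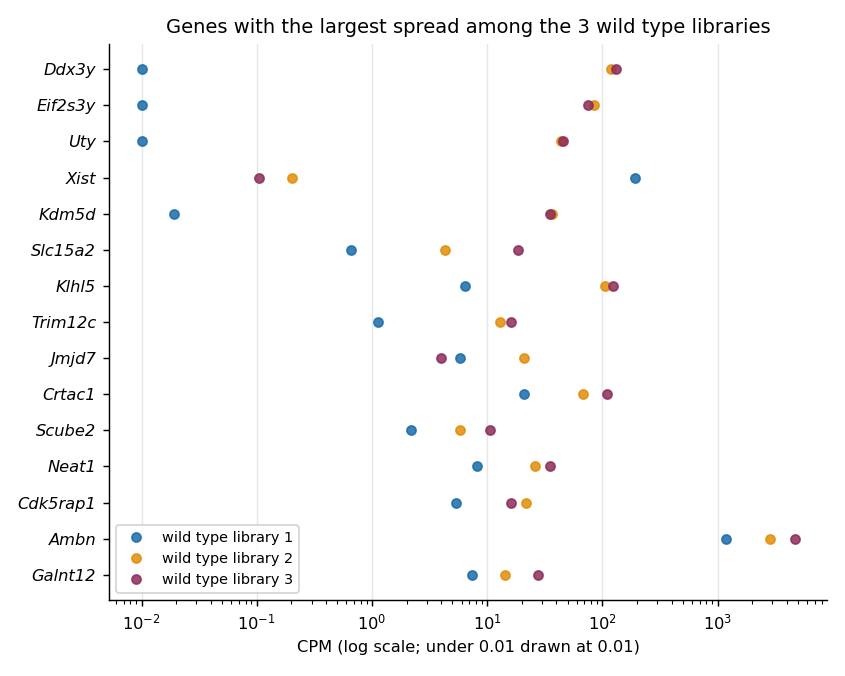
Genes named for the largest spread among the 3 wild-type libraries (rows, largest at the top, gene models left out), 1 point per library, on a log CPM axis where values under 0.01 are drawn at 0.01. Ddx3y, Eif2s3y, Uty and Kdm5d lie at the left in library 1 alone, Xist lies at the right in library 1 alone, and Klhl5, Slc15a2, Trim12c, Crtac1 and Ambn lie lowest in library 1.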

How the data were processed

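Reads were aligned with HISAT2 and counted with featureCounts on the mm10 genome, and DESeq2 is also named, all per the submitters' processing notes, without versions. The values used are the raw counts per gene symbol that the authors deposited, whole numbers with no normalization, 1 file per library. Of 23420 symbols, 27 had been turned into dates (0.219% of counts), and mitochondrially encoded genes are not among them. Counts were scaled to CPM by the library total, and to RPKM with the summed exon length of GENCODE M21 (GRCm38), which matched 98.3% of symbols. Spread is the SD of log2 CPM with a prior count of 0.5, over genes whose mean reached 5 CPM. The common dispersion came from edgeR 4.0.16 in R 4.3.3 with an intercept alone and was tested on simulated data. No test between groups was made. No library was a copy of another, since pairs differed by 27.9 to 92.2 times the sampling noise (chi-square over degrees of freedom). Coordinates are 1-based. Shared stretches are the 50-base windows of a gene's GENCODE transcripts that also occur in a gene at another place.

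The members and the 24 marker lists and 17 gene classes were chosen with earlier results of these data known. Named genes are the 6 given markers, the 25 highest by CPM, the 15 highest per length, up to 4 leaders and the members at or near 0 of each list, leaders of each class, and the 20 genes of largest and 10 of smallest spread, gene models left out. Other list members named were chosen after their values were seen. Some genes that the rule selects are not reported here. Alternatives were TMM and DESeq2 1.42.0 size factors, other limits and filters, the longest transcript as length, and leaving out each library.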

Additional observations from a re-analysis of the deposited data

How the results depend on the processing

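With no filter on low genes, the median SD of log2 CPM was 0.195 in place of 0.122, and leaving out each library in turn gave 0.0750 to 0.123, the lowest without library 1. With the filter of edgeR it was 0.149. The biological coefficient of variation ran from 9.76% to 16.4% when a library was left out, and was 14.9% with the filter of edgeR and 16.4% with none. The number of genes present ran from 10911 at a minimum of 5 CPM to 13700 at 0.5 CPM. Without library 1 the present neutrophil and mast cell genes numbered 7 in place of 4, and without library 2 the present Hox genes 2 in place of 1. TMM or DESeq2 scaling left all 20 genes of largest spread in place and moved no named level, class share or list share by more than its SD. Of the 10 genes of smallest spread, 0 were shared under TMM or DESeq2 scaling, so none is named. With the longest transcript as length, 11 of the 15 highest genes and 93 of 96 list leaders were shared. No paired analysis was possible because no comparison between groups was made. Levels of genes that share sequence with others, the sex of the embryos and the labelled age limit what these 3 libraries can show. Intervals of counts cover counting error only, since PCR copies were not marked.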

Other observations

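Of 33 genes listed as imprinted, which in at least some tissues are read from 1 parental copy, 26 were present (78.8%, against 55.4% of all symbols). The counts do not tell parental copies apart. Together the 33 took 0.468% ± 0.0247 of the counts (SD, n = 3). Gnas, the stimulatory G protein locus, stood at 1557, 1628 and 1606 CPM, the growth-restraining RNA H19 at 867, 827 and 806 CPM and the growth factor gene Igf2 at 507, 502 and 555 CPM. Cdkn1c, a cyclin-dependent kinase inhibitor, stood at 109, 137 and 146 CPM. Gnas, H19 and Igf2 varied little, while Meg3 (7.58, 13.4 and 16 CPM) was lowest in library 1.

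Of 39 long non-coding RNAs listed, 30 were present (76.9%), against 55.4% of all symbols. Of all 1517 symbols annotated as long non-coding, 222 were present. H19 had the highest level per length of those with a length, at 339 RPKM. Tug1 stood at 272, 258 and 282 CPM. The nuclear RNAs Malat1 (84.7, 126 and 168 CPM) and Neat1 (8.13, 26.1 and 35 CPM) were both lowest in library 1 and highest in library 3. Gas5, the host of several small nucleolar RNAs, stood at 54.8, 112 and 61.9 CPM and was highest in library 2.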
